A study of Homo sapiens with 8 samples.

Results

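The genotype dependence of the response to PT2399 was examined at 24 h in 786-O cells, an established clear cell renal carcinoma line. It rests on the 4 arrays at 24 h among the 8 arrays of the series, 1 array for each combination of genotype and treatment. Parental cells and cells in which HIF2a had been made null by CRISPR each received DMSO, the solvent control, or 2 uM PT2399 for 24 h, in DMEM with serum. The growth protocol names null cells for every sample, and the genotype of each array rests on its title and characteristics. The series description says that each genotype was run as an experiment of its own, so a level in one genotype against the other cannot be told apart from the experiment. Each PT2399 effect was therefore taken against the DMSO array of the same genotype. The genotype difference of a gene is its parental effect minus its null effect, both in log2 of the deposited intensity, and a negative value means that the gene was lower with PT2399 in parental cells relative to null cells. Whether the null cells are a clone or a pool was not given in the sources used here. The 48 h arrays did not enter the difference and serve as a comparison.

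HIF2a, encoded by EPAS1, is the oxygen-regulated alpha subunit of a transcription factor that pairs with ARNT and binds hypoxia response elements. In normal oxygen VHL marks hydroxylated alpha subunits for degradation, and kidney cancer cells that lack VHL keep HIF2a switched on. PT2399 binds a pocket of HIF2a and keeps it from pairing with ARNT. Cells without HIF2a therefore serve to separate effects that need the target from effects that do not.

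Of 18417 genes with a probe set of their own, the 11050 with the highest mean over the 8 arrays were tested, which set a limit at an intensity of 118. The median intensity of all probe sets was 113 in parental DMSO cells, 134 in parental PT2399 cells, 121 in null DMSO cells and 118 in null PT2399 cells at 24 h, so the parental PT2399 array stood apart from the parental DMSO array. The array of null cells with PT2399 at 48 h also stood apart, with correlations across genes of 0.777 to 0.831 with the other null arrays, and every 48 h value of null cells given here depends on it. The kidney factor PAX8 lay between 1983 and 2562 and the epithelial keratin KRT8 between 1911 and 2740 on the 8 arrays. Of the 7 proximal tubule defining markers read by a probe set 3 were above the limit, and CUBN, LRP2, AQP1 and CDH16 were not. Of the 5 epithelial markers 4 were above it, and CDH1 was not. Of the 5 endothelial, 4 leukocyte and 5 fibroblast defining markers read by a probe set, 0 were above the limit. Their summed intensities in parental cells at 24 h were 298 with DMSO and 394 with PT2399 for endothelial, 235 and 317 for leukocyte and 354 and 440 for fibroblast markers, and in null cells 358 and 363, 209 and 169, and 215 and 259. In a longer list of endothelial and leukocyte markers, 2 of 16 genes were above the limit, CLDN5 and CD68. CD68 stood at 1041 in parental DMSO cells at 24 h. In a longer list of fibroblast markers 2 of 9 were above it, ACTA2 and COL1A1. The part of all these markers in the results was not tested.

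The target transcript was measured first. EPAS1 had an intensity of 1277 with DMSO and 1519 with PT2399 in parental cells at 24 h, and of 650 and 682 in null cells. It was lower in null cells but not at background, and the sources used here do not place its probes against the edited site. The genotype difference in the PT2399 effect was 0.18 for EPAS1, 0.17 for ARNT, 0.06 for VHL and 0.47 for HIF1A, which encodes the sister subunit. Among 14 HIF pathway components, 0 had a difference of at least 1 in size. The largest was HIF1AN, the asparaginyl hydroxylase that restrains HIF, at -0.79.

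Across all genes, 164 had a genotype difference of -1 or below (1.48%) and 314 had one of 1 or above (2.84%). The lowest were CCL20, EGLN3, IRS2, ADM and NDRG1. Among the highest were FRMD8, RBM14, CWC25, CSRP2 and MMP7, in which different arrays were high or low. The PT2399 effect itself was -1 or below for 86 genes (0.778%) and 1 or above for 93 (0.842%) in parental cells, and for 21 (0.19%) and 2 genes (0.0181%) in null cells. Among the 164 lower genes, 71 (43.3%, against 1.43% of all genes) had a parental effect of at least 1 in size with a null effect under 0.5, 21 (12.8%, against 0.941%) had effects of at least 0.5 in opposite directions, and 1 came from the null side alone. The other 71 fell into none of these classes and are called mixed. Among the 314 higher genes these numbers were 59, 83, 10 and 162, so that the mixed class was the largest. These classes use the values that define the difference and are a description. The split between lower and higher depended on scaling: centring each array on its median gave 522 lower and 106 higher, and quantile normalization 305 and 198. Centring moved the median of all genes by -0.28, to -0.30.

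**Figure D1:**
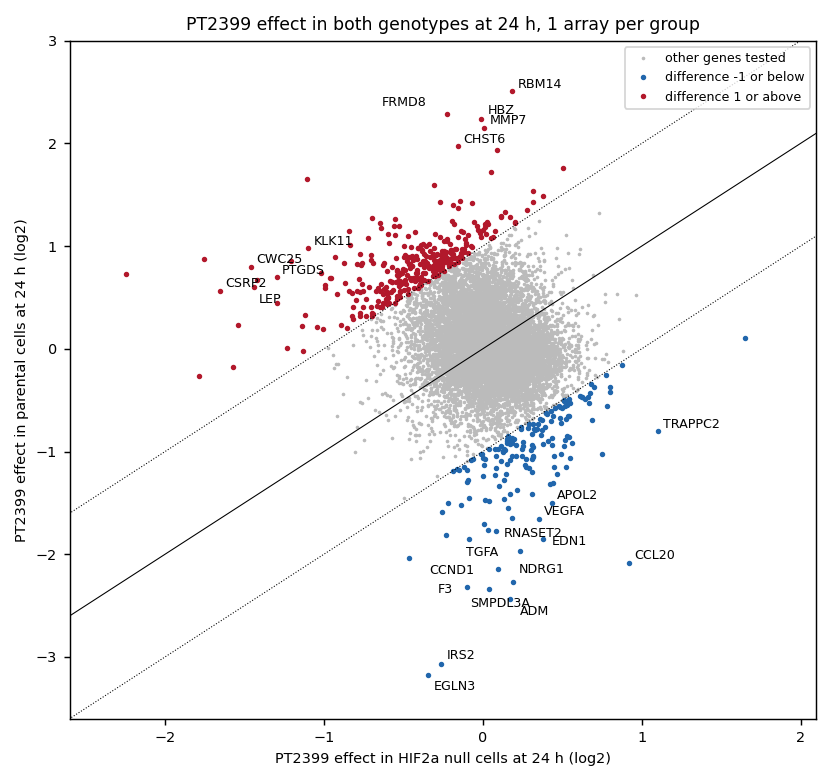
PT2399 effect at 24 h in HIF2a null cells (horizontal axis, log2) against parental cells (vertical axis, log2) for 11050 genes. The solid line marks equal effects and the dotted lines a difference of 1. Blue genes, 164 in all, have a difference of -1 or below, and red genes, 314 in all, of 1 or above. EGLN3 and IRS2 lie at the bottom with null effects near 0, whereas CSRP2 and CWC25 lie far to the left.

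With 1 array per combination there is no test of the 24 h difference by itself, and none of its values has a replicate. The nearest test took both times as repeats in a limma model over the 8 arrays. No gene was called at 0.05 (0 of 11050, 0%), the lowest adjusted p was 0.945, and 192 genes were at an unadjusted p under 0.05. The count by chance at that unadjusted p is 552.5, in this fit and in the next. Without the null 48 h arrays limma also called 0 genes (0%), its lowest adjusted p was 0.565, and 560 genes were at an unadjusted p under 0.05. That fit keeps 1 null pair, so its residual spread comes from the parental pairs alone and holds none for the null effect. Differences below are therefore values of these arrays, and no gene passed in either fit.

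Of the HIF2a-linked targets, 18 of 21 genes read by a probe set of their own were tested. Their median difference was -1.45, against -0.02 for all genes tested, and 11 of the 18 were at -1 or below, against 1.48% of all genes. The median PT2399 effect of the list was -1.50 in parental cells and 0.15 in null cells. Null effects were within 0.5 of 0 in 17 of the 18, and in 96.3% of all genes tested. These genes were known from earlier results of the same arrays to be lower in parental cells, so the list is not independent evidence of the direction. ANGPTL4, CXCR4 and FLT1 lay under the limit, at differences of 0.06, 0.18 and -0.02.

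Feedback and stress genes came first. EGLN3, one of the oxygen-sensing enzymes that hydroxylate HIF alpha subunits, had an intensity of 863 with DMSO and 95.2 with PT2399 in parental cells, against 110 and 86.9 in null cells. The genotype difference was -2.84, and 3 of these 4 arrays lay under the limit, so its size rests on dim values. NDRG1, a hypoxia-induced differentiation gene, went from 3916 to 810 in parental cells and from 483 to 552 in null cells, a difference of -2.47. Its null level stayed well above the limit. DDIT4, a stress-induced inhibitor of mTORC1 from the glycolysis and hypoxia list, stood at 1786 and 815 in parental cells and at 1316 and 1582 in null cells, so that it was expressed in both genotypes and the difference was -1.40.

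Growth and angiogenic ligands formed the next group. VEGFA, the main angiogenic growth factor, had intensities of 2378 with DMSO and 756 with PT2399 in parental cells and of 1979 and 2525 in null cells. TGFA, which encodes an EGF receptor ligand, stood at 1474 and 378 in parental cells and at 1276 and 1501 in null cells. In both genes the parental PT2399 array alone was low at 24 h, and the differences were -2.00 for VEGFA and -2.20 for TGFA. At 48 h their parental effects were -1.32 and -1.10. Their null effects at 48 h were -0.84 and -0.80, on the array that stood apart. ADM, which encodes the vasodilator peptide adrenomedullin, went from 861 to 160 in parental cells and from 195 to 220 in null cells, a difference of -2.61. EDN1, the vasoconstrictor endothelin-1 and a member of the angiogenic list only, stood at 304 and 84.2 in parental cells and at 120 and 156 in null cells, a difference of -2.23. Of the 18 angiogenic and growth factors tested, 15 were below 0 (51.4% of all genes were) and 5 at -1 or below (1.48%), with a median of -0.28. The fifth was PDGFC, a platelet-derived growth factor chain, at -1.38, whereas PDGFB, the chain best known as a VHL-linked gene, stood at -0.93.

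Growth signalling and nutrient uptake were also represented. CCND1, the G1 cyclin D1, had intensities of 2026 with DMSO and 460 with PT2399 in parental cells and of 932 and 994 in null cells, a difference of -2.23. IRS2, an adaptor of the insulin receptor and not a member of the HIF2a-linked list, stood at 1019 and 121 in parental cells and at 211 and 176 in null cells, a difference of -2.81. Of 13 insulin and mTORC1 signalling genes tested IRS2 was the 1 gene at -1 or below, and IRS1 stood at -0.49. SLC2A1, the glucose transporter GLUT1, went from 3164 to 1012 in parental cells and from 1042 to 1184 in null cells (-1.83). SLC7A5, a leucine transporter subunit, went from 2557 to 872 and from 1961 to 2191 (-1.71). SLC3A2, its partner chain, stood at -0.85. The lipid droplet proteins HILPDA and PLIN2 were at -1.59 and -1.06, GAL3ST1, a sulfatide synthesis enzyme raised in renal carcinoma, was at -1.31, and CP, the copper oxidase ceruloplasmin, was at -0.96 with a null effect of -0.50. PDGFB, STC2, a secreted glycoprotein, and IGFBP3, which binds insulin-like growth factors, were at -0.93, -0.82 and -0.47. Members near or above 0 were CITED2, a co-regulator, at -0.21, LOX, a collagen crosslinking enzyme, at 0.31, and EPO, the erythropoietin gene, at 0.72.

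**Figure D2:**
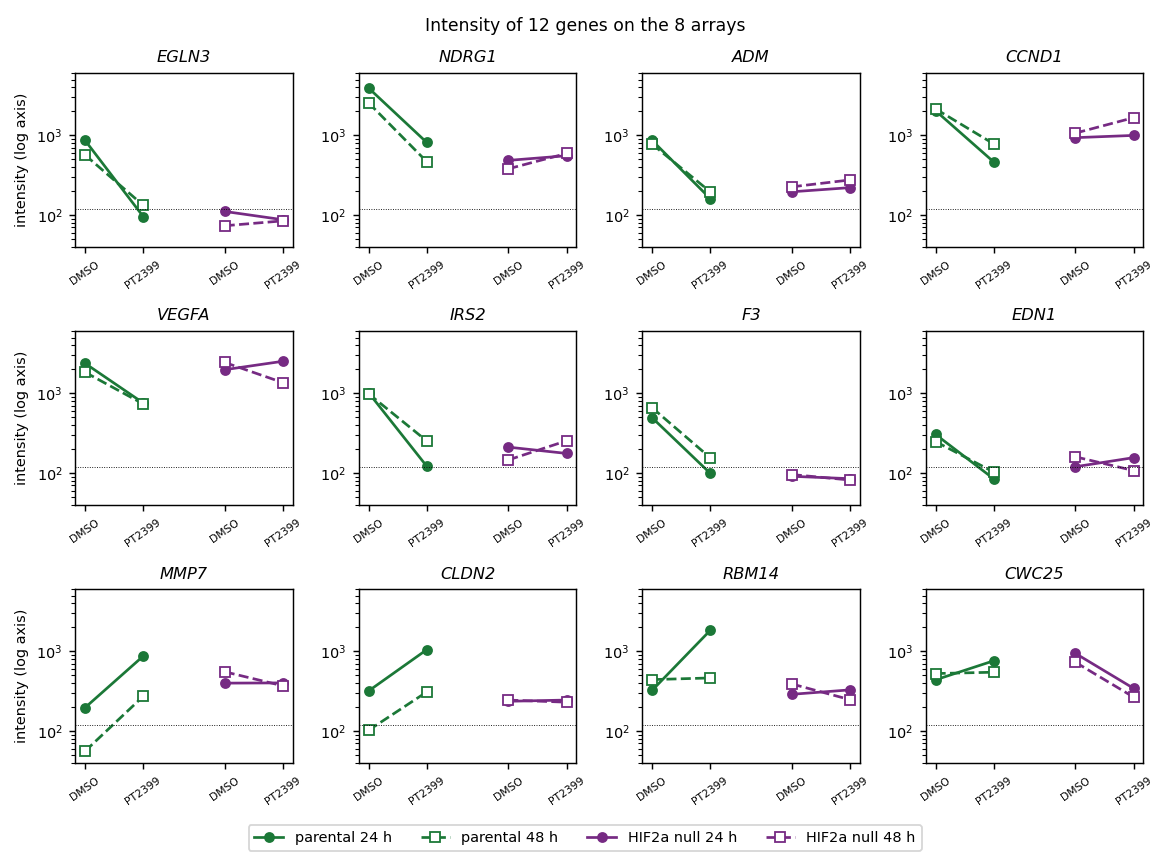
Deposited intensity (log axis) of 12 genes on the 8 arrays, with filled circles for 24 h and open squares for 48 h, parental cells in green and HIF2a null cells in purple. Lines join DMSO to PT2399 on 1 array each, and the dotted line is the limit of 118. EGLN3 and F3 are under the limit in null cells, VEGFA and CCND1 are well expressed there, and RBM14 is high on the parental 24 h PT2399 array alone.

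Of the 14 genes named as lowest, 6 belong to the HIF2a-linked list. A null effect within 0.5 of 0 was seen in 12 of the 14, against 96.3% of all genes tested. F3, the coagulation initiator tissue factor, had intensities of 494 and 98.8 in parental cells and of 90.8 and 84.7 in null cells, with 3 of the 4 arrays under the limit. SMPDL3A, an acid sphingomyelinase-like phosphodiesterase, stood at 899 and 178 in parental cells and at 80.6 and 82.6 in null cells. The differences were -2.22 for F3 and -2.37 for SMPDL3A. RNASET2, a secreted lysosomal ribonuclease, went from 950 to 278 in parental cells and from 141 to 149 in null cells (-1.86), and APOL2, an intracellular apolipoprotein L, went from 837 to 296 and from 423 to 571 (-1.93). In these last genes the parental array with PT2399 came closer to the null level or passed below it.

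The exceptions were CCL20 and TRAPPC2, in which null cells contributed. CCL20, a chemokine, stood at 605 and 143 in parental cells and at 397 and 751 in null cells, the lowest difference of all genes at -3.01. It was unsteady between control arrays, since the null DMSO array at 48 h read 1533, and with the 48 h DMSO arrays as controls its difference was 0.51. TRAPPC2, a vesicle tethering subunit with a near-identical copy elsewhere in the genome, stood at 165 and 94.4 in parental cells and at 72.0 and 154 in null cells. Its parental effect at 48 h was -0.06.

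The promoters of the lowest genes were searched for ACGTG, the core of the hypoxia response element, on both strands, in the 250 bases before the gene start that RefSeq gives on GRCh38.p14. Of the 14 lowest genes 9 had a promoter in the table, and 2 of those held a match, EDN1 and RNASET2. They are shown with matches in capitals, beside FRMD8, the highest named gene, and MMP7, chosen after its values were seen because it was higher at both times. The EDN1 stretch is chr6:12287769-12288018 (+ strand), RNASET2 is chr6:166956551-166956800 (- strand), FRMD8 is chr11:65386387-65386636 (+ strand) and MMP7 is chr11:102530748-102530997 (- strand).
EDN1: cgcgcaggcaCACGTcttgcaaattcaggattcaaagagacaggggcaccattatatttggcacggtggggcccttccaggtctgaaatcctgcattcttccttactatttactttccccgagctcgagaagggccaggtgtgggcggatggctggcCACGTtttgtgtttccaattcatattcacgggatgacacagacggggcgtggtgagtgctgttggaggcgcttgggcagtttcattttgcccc
RNASET2: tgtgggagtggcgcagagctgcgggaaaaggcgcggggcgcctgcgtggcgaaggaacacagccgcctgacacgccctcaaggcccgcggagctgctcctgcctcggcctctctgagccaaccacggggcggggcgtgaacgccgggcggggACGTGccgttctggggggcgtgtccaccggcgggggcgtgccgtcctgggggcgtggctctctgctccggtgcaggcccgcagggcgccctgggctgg
FRMD8: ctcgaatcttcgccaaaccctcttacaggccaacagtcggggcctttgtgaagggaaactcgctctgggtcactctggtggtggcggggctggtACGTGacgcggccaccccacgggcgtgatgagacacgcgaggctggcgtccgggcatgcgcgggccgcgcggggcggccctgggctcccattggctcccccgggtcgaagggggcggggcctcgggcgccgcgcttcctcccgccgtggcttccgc
MMP7: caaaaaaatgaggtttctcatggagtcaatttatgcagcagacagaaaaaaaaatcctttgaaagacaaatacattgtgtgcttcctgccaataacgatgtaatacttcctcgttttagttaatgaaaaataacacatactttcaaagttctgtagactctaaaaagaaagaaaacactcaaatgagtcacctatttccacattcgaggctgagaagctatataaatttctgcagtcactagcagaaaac
EDN1 has 2 matches, which begin 240 and 93 bases before the start, RNASET2 has 1 at 98 bases, FRMD8 has 1 at 156 bases and MMP7 has 0. None of the 4 matches lies in the palindrome CACGTG. A match was present in 25% of 128 promoters of the lower genes, in 21.5% of 209 of the higher genes, in 23.9% of 8888 promoters of the genes tested and in 18.7% of all 27305 promoters in the table. The lower genes therefore held the letters about as often as the genes tested, and these windows do not cover distant elements or other start sites of a gene.

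The higher side was mixed. RBM14, an RNA-binding co-activator, had intensities of 324 with DMSO and 1841 with PT2399 in parental cells and of 289 and 329 in null cells, a difference of 2.32. FRMD8, a FERM-domain protein, stood at 90.2 and 441 in parental cells and at 130 and 111 in null cells (2.52). HBZ, an embryonic globin, stood at 120 and 564 and at 138 and 137 (2.25), and CHST6, a sulfotransferase, at 88.7 and 348 and at 130 and 117 (2.13). In these 4 genes 1 array, parental PT2399 at 24 h, was high, and the parental effects at 48 h were 0.07, -0.08, -0.74 and 0.24.

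In another group null cells were lower with PT2399. CWC25, a spliceosome factor, stood at 440 and 763 in parental cells and at 944 and 344 in null cells, a difference of 2.25. CSRP2, a LIM-domain protein, stood at 444 and 656 and at 888 and 282 (2.22). Both genes were also lower with PT2399 in null cells at 48 h, at -1.45 and -1.64. LEP, the leptin gene, at 2.05, PTGDS, a prostaglandin D synthase, at 1.99, and KLK11, a kallikrein protease, at 2.08 had null effects of -1.44, -1.30 and -1.10. The difference of LEP was -0.21 with the 48 h DMSO arrays as controls.

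MMP7, a matrix metalloprotease, was the 1 gene of the highest 10 with a parental effect of at least 0.5 at 48 h. Its intensities were 196 with DMSO and 873 with PT2399 in parental cells, against 400 and 402 in null cells, a 4.42-fold difference (log2 2.14). CLDN2, a tight junction protein that forms cation pores, went from 318 to 1051 in parental cells and from 236 to 245 in null cells (1.67). COL14A1, a fibril-associated collagen, went from 106 to 406 and from 262 to 279 (1.84). AKR1C3, an aldo-keto reductase that reduces steroids, went from 189 to 509.6 and from 224 to 186 (1.70). In these 4 genes the null effect at 24 h was within 0.3 of 0. AKR1C1, at 1.02, is close in sequence to its neighbours, and its value may hold their signal.

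The parental 48 h arrays did not enter the difference, and the lower and higher genes were read on them in turn. Of the 164 lower genes, 142 were below 0 in the parental 48 h pair (86.6%, against 49% of all genes). Of these 164, 54 were at -0.5 or below (32.9%, against 1%) and 27 at -1 or below (16.5%, against 0.253%). Of the 314 higher genes, 157 were above 0 at 48 h (50%, against 51%). Of these 314, 13 were at 0.5 or above (4.14%, against 1.07%) and 3 at 1 or above (0.955%, against 0.0814%). By their medians the lower genes were at -0.27 and the higher genes within 0.01 of 0 in that pair. Among the 14 lowest genes 13 were at -1 or below at 48 h, against 0.253% of all genes, with TRAPPC2 as the exception. Across all 11050 genes the 24 h difference had a Pearson correlation of 0.22 and a Spearman correlation of 0.13 with the parental 48 h effect, as a description of genes that share arrays. With the 48 h genotype difference, which rests on the null array that stood apart, the correlations were -0.19 and -0.25. By that 48 h difference 83 of the 164 lower genes (50.6%) were below 0, the sign they had at 24 h. All genes were split about as evenly, with 50.1% above 0. Of the 314 higher genes 120 (38.2%) were above 0, against 50.1% of all genes. With the 48 h parental pair set against the same null 24 h pair, 36 genes were lower and 35 higher by at least 2-fold.

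**Figure D3:**
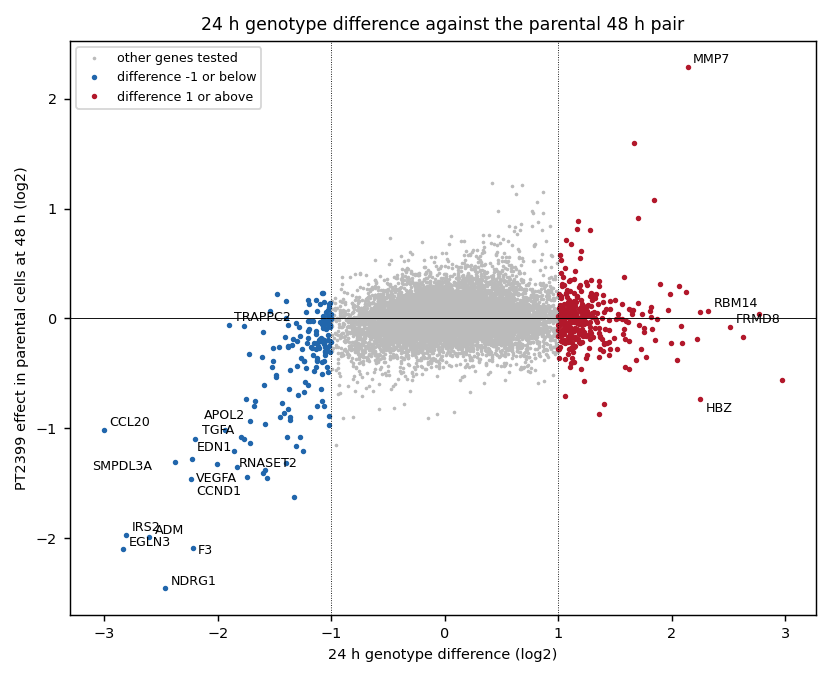
The 24 h genotype difference (horizontal axis, log2) against the PT2399 effect in parental cells at 48 h (vertical axis, log2) for 11050 genes. Blue and red mark the same genes as above, and dotted lines a difference of 1 in size. NDRG1, EGLN3, IRS2, ADM and F3 lie far down on the left, whereas on the right most red genes lie near 0 and MMP7 stands at 2.29.

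The higher side was filled by dim genes. Of the 2210 dimmest genes tested, with mean levels between 118 and 177, 6.47% had a difference of 1 or above and 1.81% of -1 or below. Of the 2210 brightest, above 838, these shares were 0.226% and 0.814%. The median parental effect at 24 h went from 0.28 in the dimmest to -0.04 in the brightest genes, whereas the parental 48 h medians were 0.00 in both and the null 24 h median was 0.07 in the brightest. In parental DMSO cells at 24 h, 75 of the 314 higher genes (23.9%) and 2 of the 164 lower genes (1.22%) were under the limit. The share of all genes was 5.19%. That array entered the difference, and a low reading on it raises the difference, so these shares are partly built in. The part of the array-wide pattern by level in single values was not tested. The higher genes held 11 snoRNA genes (3.50%, against 0.851% of all genes) and 21 lncRNA genes (6.69%, against 1.53%). The lower genes held 1 (0.610%) and 2 (1.22%), and no test was made.

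**Figure D4:**
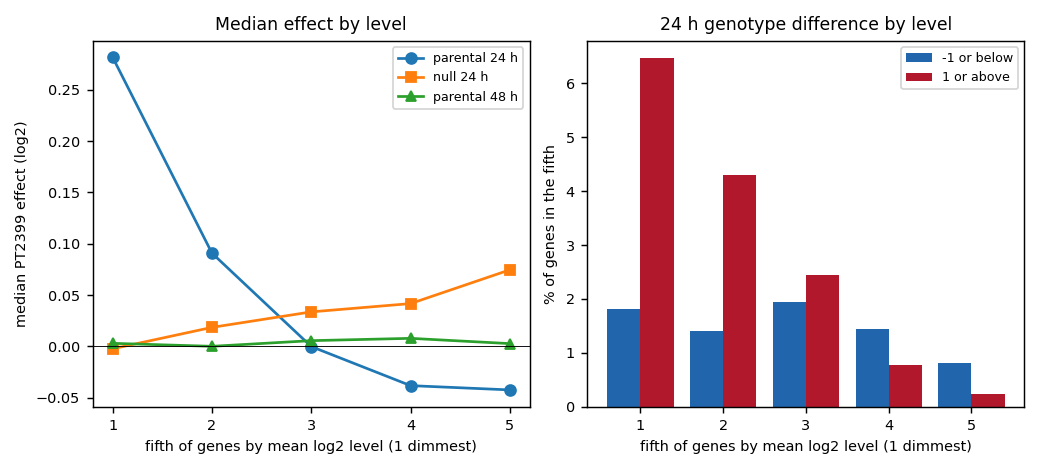
Genes tested split into 5 equal groups of 2210 by mean log2 level, 1 being the dimmest. On the left are the median PT2399 effects (log2) in parental cells at 24 h and 48 h and null cells at 24 h, and on the right the share of genes (%) with a 24 h genotype difference of -1 or below (blue) or 1 or above (red). The parental 24 h median is 0.28 in the dimmest group, where red genes are 6.47%.

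A lower baseline in null cells was seen in part of both groups. In the DMSO arrays at 48 h, which did not enter the difference, 30 of the 164 were at least 2-fold under the parental level (18.3%, against 8.55% of all genes) and 7 at least 2-fold over it (4.27%, against 4.26%). This comparison crosses the separate experiments, and for the 314 higher genes the shares were 15.0% and 9.87%. At 24 h, 28 of the 164 were under the limit in null DMSO cells (17.1%, against 5.44% of all genes). That 24 h array entered the difference, and a low reading on it lowers the difference, so this share is partly built in. Of the 14 lowest, 8 were at least 2-fold under the parental level at 48 h, among them EGLN3 at -2.95, F3 at -2.79 and NDRG1 at -2.75. VEGFA at 0.41 and TGFA at 0.68 were not, and in the 24 h DMSO arrays they stood at -0.27 and -0.21.

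Glycolysis and HIF1a-linked hypoxia genes were mostly below 0, with a median difference of -0.36. Of 27 tested, 23 were below 0 (51.4% of all genes were) and 3 were at -1 or below: DDIT4, CA12 and ENO2. CA12, a carbonic anhydrase, had intensities of 2401 and 1033 in parental cells and of 953 and 1055 in null cells (-1.36). ENO2, an enolase, stood at 362 and 172 and at 240 and 243 (-1.09). PDK1, the kinase that shuts pyruvate out of the mitochondrion, was at -0.78.

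The G1/S and DNA replication genes had a median of -0.69. Of 38 tested, 37 were below 0 (51.4% of all genes were) and 7 at -1 or below (1.48%). All 38 parental effects at 24 h were below 0, with a median of -0.62, against 5228 of 11050 genes. In null cells 29 were above 0, with a median of 0.09, against 6279 of 11050 genes. MCM6, a helicase subunit, went from 770 to 365 in parental cells and from 325 to 392 in null cells (-1.35). CCNE2, a G1/S cyclin, went from 678 to 288 and from 241 to 241 (-1.24). PRIM1, a primase subunit, was at -1.16 and ORC6, an origin recognition subunit, at -1.13. In the parental 48 h pair 37 of the 38 were again below 0, with a median of -0.29, so that with that pair in place of the 24 h pair the list median was -0.36. With the 48 h pairs of both genotypes it was 0.064.

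The G2/M and mitosis genes were closer to 0. Of 30 tested, 28 were below 0 (51.4% of all genes were) and 0 at -1 or below (1.48%). The median was -0.41, from -0.43 in parental and -0.07 in null cells. CDC25C, a mitotic phosphatase, was at -0.89, CCNA2, the S and M phase cyclin A2, at -0.68 and TTK, a spindle checkpoint kinase, at -0.66. The median was -0.07 with the 48 h parental pair in place of the 24 h pair, -0.03 with the 48 h DMSO arrays as controls and 0.81 with the 48 h pairs of both genotypes.

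**Figure D5:**
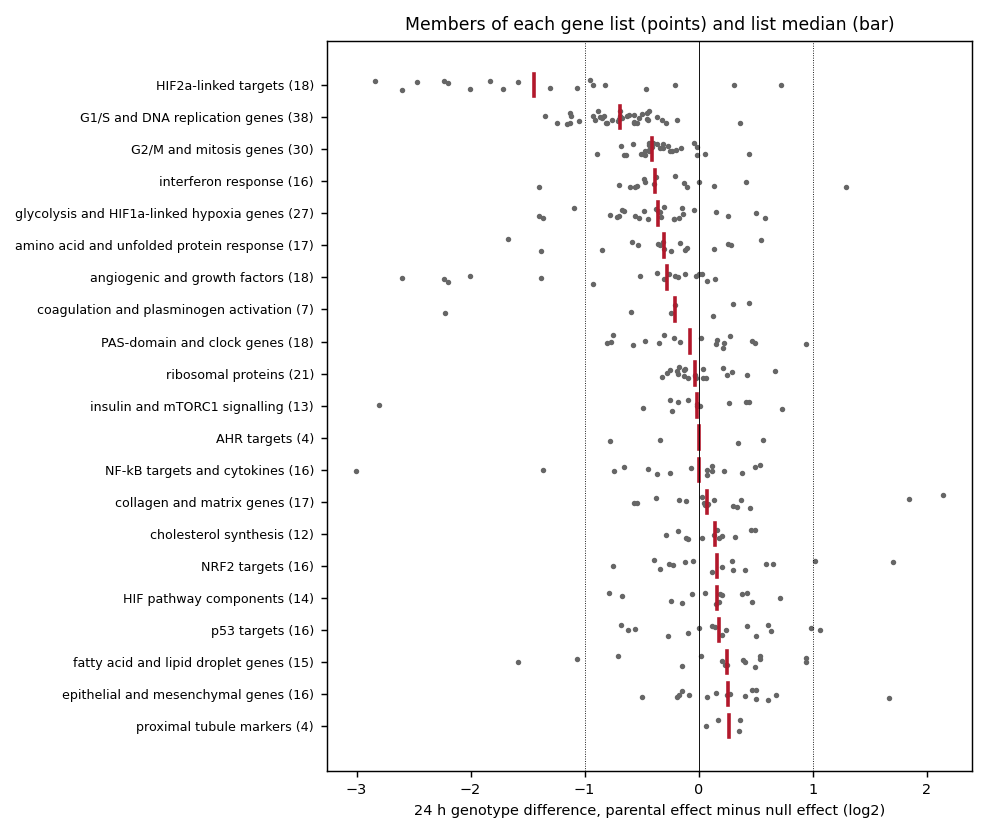
24 h genotype difference (horizontal axis, log2) of the members of 21 gene lists with at least 3 members tested, with the number of members in brackets. Each point is a gene, red bars are list medians, and dotted lines mark a difference of 1 in size. The HIF2a-linked median is -1.45 and the G1/S median -0.69, and the other medians lie between -0.41 and 0.26.

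Other lists with a negative median owed part of it to null cells. The amino acid and unfolded protein response genes had a median difference of -0.31, from -0.01 in parental and 0.31 in null cells, with 16 of 17 null effects above 0, as were 6279 of all 11050 genes. TRIB3, a pseudokinase, was at -1.67, with intensities of 564 and 254 in parental cells and of 511 and 734 in null cells, and ASNS, asparagine synthetase, at -1.39. The interferon response genes had a median of -0.38, from -0.01 and 0.29, led by RSAD2, an antiviral enzyme, at -1.40 and IRF7, an interferon regulatory factor, at 1.29. With the 48 h DMSO arrays as controls the interferon median was 0.45. The coagulation and plasminogen activation list had a median of -0.21, with F3 as its 1 member at -1 or below, and its median was 0.10 with those controls. NF-kB targets and cytokines had a median of 0.00, and after CCL20 the lowest was LIF, a cytokine, at -1.37.

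Of the 21 lists plotted, 10 had a positive median, the highest 0.26. Centring subtracts 0.28 from every difference alike, so these medians were then below 0 while their distance from the median of all genes was unaltered. Fatty acid and lipid droplet genes had a median of 0.25 (-0.0366 after centring), with SCD, the stearoyl-CoA desaturase, and SREBF1, a lipogenic factor, each at 0.94 against HILPDA and PLIN2 below 0. Epithelial and mesenchymal genes had a median of 0.26 (-0.023 after centring), led by CLDN2 and by CDH6, a kidney cadherin, at 0.68. The 4 proximal tubule markers tested had a median of 0.26 (-0.020 after centring). Medians were 0.17 for p53 targets (-0.11 after centring), led by GDF15, a stress cytokine, at 1.07, and 0.16 for NRF2 targets (-0.13 after centring). Cholesterol synthesis genes were at 0.14 (-0.14 after centring) and collagen and matrix genes at 0.07 (-0.21 after centring). Ribosomal proteins at -0.04, PAS-domain and clock genes at -0.07, insulin and mTORC1 genes at -0.02 and AHR targets at 0.00 were near the median of all genes. BHLHE40, a hypoxia-linked repressor, was at -0.81 and TIPARP, an AHR-induced ribosyltransferase, at -0.77.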

How the data were processed

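Transcript levels were read on 8 Affymetrix whole-transcript arrays, and the 24 h difference uses 4 of them. The authors deposited a linear intensity for each of 33252 probe sets; a log2 scale had been planned for, and the values show that it had not been applied. Background correction and scaling were not given in the sources used here. Log2 was taken of the intensities without further scaling. Of 19460 probe sets with 1 gene, 19429 were found in the GRCh38.p14 RefSeq table through their Entrez number and 31 have an older name; 1754 with several genes and 12038 unnamed here were left out. A gene was represented by its brightest probe set, and genes at or above percentile 40 of the mean were tested. Named genes were the 14 lowest and 10 highest differences of at least 1 in size, up to 4 members of each of 23 lists, and 8 fixed genes, leaving out locus names, small RNAs and near-identical families. The other members of the HIF2a-linked list, and any other gene outside this rule, were added after their values were seen. Genes and lists were chosen with earlier results of these arrays known. Limma 3.58.1 in R 4.3.3 fitted, for each genotype, its level, its time and its PT2399 effect, with Benjamini-Hochberg adjustment at 0.05. The fit was also run on simulated arrays with equal noise and no array that stood apart. That run does not show how many real differences the fit would miss here. Nothing says whether the 24 h and 48 h arrays came from separate cultures, so p-values measure only the spread between these pairs. Without the null 48 h arrays they measure only the spread between the parental pairs. The number of arrays limits the precision. Alternatives changed the scaling, an offset of 32, the filter, the probe set rule and the arrays used.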

Additional observations from a re-analysis of the deposited data

Results flagged for a closer look

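In some genes the PT2399 effect had one sign in both parental pairs and the other sign in both null pairs, at 24 h and at 48 h alike. The median effects of the HIF2a-linked list also had such opposite signs, with a 24 h difference of -1.45. Genes with a negative difference were ADM at -2.61, NDRG1 at -2.47, CCND1 at -2.23, APOL2 at -1.93, SLC2A1 at -1.83, DDIT4 at -1.40, ASNS at -1.39, LIF at -1.37, ORC6 at -1.13, ENO2 at -1.09, PLIN2 at -1.06, NFKB2 at -0.74, UBE2C at -0.64, PLAUR at -0.59, IRS1 at -0.49, RPS6 at -0.32 and SREBF2 at -0.29. Genes with a positive difference were CWC25 at 2.25, SCD at 0.94, TFPI at 0.44, CYP1B1 at 0.35 and SERPINE2 at 0.30. Genes were picked by sign alone, with no limit on size, and the share of all genes with this pattern was not counted. Some effects were near 0, such as the parental effects of RPS6, at -0.04 and -0.02. The null effect of ENO2 at 24 h was 0.02. The listed differences were not tested at 24 h, and limma over both times called 0 genes. The null 48 h pair holds the array that stood apart from the other null arrays.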

How the results depend on the processing

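The genes at least 2-fold lower numbered 164 and those at least 2-fold higher 314. Their numbers were 522 and 106 after centring of each array, 305 and 198 after quantile normalization, and 105 and 185 with an offset of 32. They were 273 and 1068 with no filter, 101 and 101 with a filter at percentile 60, 36 and 35 with the 48 h parental pair, and 1273 and 1896 with the 48 h pairs of both genotypes. The HIF2a-linked median of -1.45 was negative under every alternative run, and moved to -1.73 after centring, -1.06 with no filter, -1.12 with the 48 h parental pair and -0.98 with both 48 h pairs. Of the other lists, 10 had a median of at least 0.2 in size, and 5 with the 48 h parental pair. Of the 24 lowest and highest genes, 11 kept a difference of at least 1 in the same direction with both 48 h pairs. Limma called 0 genes in each of its 4 fits.

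Some values turned in sign, and those of lists at least 0.2 or genes at least 1 in size are given first. After centring, which shifts every difference by -0.28, these were the medians of fatty acid and lipid droplet genes (-0.0366), epithelial and mesenchymal genes (-0.023) and proximal tubule markers (-0.020). With the 48 h DMSO arrays they were the interferon (0.45) and coagulation (0.10) medians, CCL20 (0.51), LEP (-0.21) and RSAD2 (0.12). With the 48 h parental pair they were RBM14 (-0.12) and HBZ (-0.72). With both 48 h pairs they were the medians of the G1/S (0.064), G2/M (0.81), fatty acid (-0.36), interferon (0.57), coagulation (0.23) and proximal tubule (-0.13) lists, and CCL20 (1.30), TRAPPC2 (0.11), FRMD8 (-0.39), HBZ (-0.79), CHST6 (-1.62), KLK11 (-0.75), MCM6 (0.14), CCNE2 (1.66), PRIM1 (0.023), AKR1C3 (-0.28), RSAD2 (0.61) and IRF7 (-0.65). Nearer 0, the medians of HIF pathway (-0.12), NRF2 (-0.13), p53 (-0.11), cholesterol (-0.14), collagen (-0.21), NF-kB (-0.28) and AHR (-0.28) lists also turned after centring, and those of HIF pathway (-0.13), cholesterol (-0.11) and PAS-domain (0.23) genes with both 48 h pairs. Over all 104 named genes, 42 turned with both 48 h pairs, among them TTK (2.32), CCNA2 (0.95) and SREBF1 (-0.59), 19 with the 48 h DMSO arrays, 11 with the 48 h parental pair and 6 after centring. The cause was not tested. No replicate block could be fitted because each group has 1 array and the labels carry no replicate numbers, whereas the limma model sets PT2399 against DMSO within each time and genotype. Signal near the limit of 118 bounds how far a null level can be seen to go down.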

Other observations

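Of the 314 higher genes, 13 were also at 0.5 or above in parental cells at 48 h (4.14%, against 1.07% of all genes). Of them 5, chosen after their values were seen, are described here. C3, the central complement component, had a 24 h difference of 1.17, with a parental effect of 1.18 at 24 h and 0.82 at 48 h and a null effect of 0.01. CFI, a protease that inactivates complement, was at 1.17, with 1.29, 0.89 and 0.12. CLU, a secreted chaperone that restrains complement, was at 1.20, with 1.34, 0.61 and 0.14. TNFRSF11B, the decoy receptor osteoprotegerin, was at 1.19 and S1PR1, a sphingosine-1-phosphate receptor, at 1.28. In DMSO at 48 h the null level was above the parental level by 2.33 for C3, 2.05 for CLU and 2.76 for TNFRSF11B on the log2 scale, and the S1PR1 difference was -1.82, a comparison across separate experiments.

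Lower genes outside the lists included PTGES, the inducible prostaglandin E synthase, at a 24 h difference of -1.77 with a parental 48 h effect of -1.10 and a null effect of -0.09. STC1, the secreted glycoprotein stanniocalcin 1, was at -1.80, with -1.07 and 0.03. SEMA6A, a transmembrane semaphorin, was at -1.57, with -1.45 and -0.46. ITGB8, an integrin chain that activates TGF-beta, was at -1.25, with -1.21 and 0.21, and ARRDC3, an alpha-arrestin, was at -1.33, with -1.62 and -0.26. In 4 of these 5 genes the null effect at 24 h was smaller than 0.3 in size, the exception being SEMA6A. None passed the limma test over both times.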
